A study of Homo sapiens with 42 samples.

Results

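Aminoacyl-tRNA synthetase mRNAs code for the enzymes that load each tRNA with its amino acid. The set described here holds 35 genes of 11984 gene names listed in 7 tables of bulk libraries. It was taken by gene symbol: 19 genes code for cytosolic enzymes, and 16 genes whose symbols end in 2 code for mitochondrial enzymes. The enzymes of both compartments come from nuclear genes and are made on cytosolic ribosomes, and the mitochondrial ones are then imported. KARS1 and GARS1 each give both a cytosolic and a mitochondrial form and are counted here with the cytosolic enzymes. Several cytosolic enzymes are held together in the multisynthetase complex (EPRS1, IARS1, LARS1, MARS1, QARS1, RARS1 and KARS1 among the genes described), and the others are counted here as outside it.

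In the libraries described, TadA-8e, which deaminates adenosine to inosine (read as G in sequencing), was expressed from a transfected plasmid together with GFP. The enzyme carried an ER-membrane signal (ERM), a nuclear export signal (NES, cytoplasm) or a nuclear localisation signal (NLS), in wild-type K562 cells (an erythroleukaemia line, NES and NLS) and wild-type HEK293T cells (an embryonic kidney line that carries the SV40 T antigen, all 3 constructs). Each of 7 groups had 2 libraries: poly(A) RNA for the 2 K562 groups and the 3 HEK293T groups, and rRNA-depleted RNA for NES and NLS in HEK293T. The plasmid was given transiently, by electroporation to K562 and by lipofection to HEK293T cells. GFP-positive cells were sorted in every group, and control cells received GFP alone. The amount of each construct was not analysed here, so a difference between constructs in place and in amount cannot be told apart.

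The tables list single adenosines with the fraction of reads changed to G in each library, which is called the rate here. The mean rate over all listed sites lay between 8.65% and 13.6% in the poly(A) libraries and between 17.6% and 21.4% in the rRNA-depleted libraries. The depth behind each fraction is unknown. All 12 erythroid markers, among them HBG1 and GATA1, had listed sites in both K562 tables and none had one in a HEK293T table. Of 9 markers of HEK293T cells, 5 (poly(A)) and 7 (rRNA-depleted) were listed in HEK293T tables, and 1 was listed in the K562 tables.

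Synthetase mRNAs were listed in every table. They had 7297 sites in 34 genes with NES and 4836 sites in 32 genes with NLS in K562 poly(A) RNA. In HEK293T poly(A) RNA they had 2863 sites in 34 genes with ERM, 5796 in 34 genes with NES and 3757 in 33 genes with NLS. In rRNA-depleted RNA they had 2960 sites in 34 genes with NES and 2991 in 32 genes with NLS. All 30500 entries lay within the RefSeq interval of their gene (GRCh38.p14) on 1 strand. FARS2, the mitochondrial phenylalanine enzyme, was listed in 1 table only, with 4 sites in rRNA-depleted NES RNA. PARS2, the mitochondrial proline enzyme, was in no NLS table, and EARS2, the glutamate enzyme, was not in the K562 NLS table. In 5 genes (MARS1, YARS1, CARS2, EARS2 and FARS2) the interval overlaps another coding gene. Sites labelled with EARS2 and GGA2 together were not counted.

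Sequence around a site could be read for the sites that lie near a gene's start, in the RefSeq promoter windows of GRCh38.p14, which held 43 sites of 16 synthetase genes. The 7 shown are, of each of the 7 genes with a site listed in at least 5 tables, the site listed in the most, so they show what a site modified by several constructs looks like. The capital letter is the modified adenosine, the sequence is that of the gene's strand read 5′ to 3′, and which exon holds each site was not analysed here.
CARS1 chr11:3040963-3040983 (minus strand): aagtgttcatAcctcaagatg
IARS1 chr9:92293648-92293666 (minus strand): agttgcttttAggcttgct
RARS1 chr5:168486497-168486517 (plus strand): ggatggacgtActggtgtctg
TARS1 chr5:33440997-33441014 (plus strand): cccgggcgctAgcccacc
GARS1 chr7:30594906-30594926 (plus strand): ccagggccgcAggctcatgcc
SARS1 chr1:109213922-109213942 (plus strand): tgcggcggtcAcaggctgagt
IARS2 chr1:220094160-220094180 (plus strand): ctgccccttcAagctggggcg

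The CARS1, IARS1, RARS1 and TARS1 sites were listed in all 7 tables, and a T precedes the adenosine in each of these 4. A C precedes it in the GARS1, SARS1 and IARS2 sites, which were listed in 6, 6 and 5 tables, and the GARS1 site was not listed with ERM. Over all genes, in the 50 bases after the starts that these windows mark, between 37.4% and 46.9% of listed sites followed a T. Of all adenosines there, 11.1% did. Of the synthetase sites in the same bases, 9 of 35 followed a T with NES and 7 of 18 with NLS in K562, 7 of 19 with NES and 7 of 17 with NLS in HEK293T poly(A) RNA, and 9.42% of the 329 adenosines of these genes there did. More of these synthetase sites followed a C: 16 of 35 with NES and 9 of 18 with NLS in K562, and 10 of 19 and 8 of 17 in HEK293T poly(A) RNA. Of the 329 adenosines, 37.4% followed a C. Every listed site that fell in a window was an A in the reference.

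The TARS1 site (threonine enzyme) had 37.1% and 31.9% with NES and 38.7% and 41.2% with NLS in K562. In HEK293T poly(A) RNA its rate was 26.5% and 20.9% with ERM, 32.6% and 34.8% with NES, and 28.4% and 31.4% with NLS. Both ERM libraries thus lay below all NES and NLS libraries at this base in HEK293T, both NES libraries lay above ERM and NLS there, and in K562 both NLS libraries lay above both NES libraries. The IARS2 site (mitochondrial isoleucine enzyme) had 30.4% and 24.6% with NES and 13.7% and 11.3% with NLS in K562, where NES was higher in each library. In HEK293T its NES libraries, at 17.6% and 4.87%, lay apart from each other and enclosed the NLS libraries, at 5.31% and 9.18%.

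The mRNAs of cytosolic enzymes were listed with many sites at low rates, and those of mitochondrial enzymes with few sites at higher rates. A gene's level is given here as the mean rate over its listed sites, for genes with at least 5. In K562 the median level was 7.48% for cytosolic and 18.4% for mitochondrial enzymes with NES, against 16.5% for all genes, and 6.08% and 13.5% with NLS, against 11.9%. In HEK293T poly(A) RNA it was 5.94% and 12.9% with ERM (all genes 11.0%), 6.56% and 13.4% with NES (all genes 13.5%), and 5.16% and 10.6% with NLS (all genes 9.90%). In rRNA-depleted RNA it was 15.5% and 26.5% with NES (all genes 23.5%), and 14.2% and 25.2% with NLS (all genes 22.5%). The order of the classes was the same in these 7 groups, and genes share libraries, so no test is given.

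The classes differed as much in the number of sites. With NES in HEK293T poly(A) RNA, cytosolic genes had 4919 sites in all and a median of 239 per gene, and mitochondrial genes had 877 and a median of 33. Over all genes the level also fell with the number of sites: the median was 22.3% for genes with 5 to 19 sites, 14.5% for 20 to 99, and 10.0% for 100 or more. The 19 cytosolic genes all had 100 or more, with a median of 6.56%, and 2 mitochondrial genes (IARS2 and WARS2) had as many. The 5 mitochondrial genes with 5 to 19 sites had a median of 14.4%, and the 7 with 20 to 99 had 12.9%. In these libraries the medians of mitochondrial genes with fewer than 100 sites, and that of cytosolic genes, thus lay below those of all genes with similar numbers of sites. Of the 2 mitochondrial genes with more, IARS2 (6.72%) lay below 10.0% and WARS2 (20.3%) above. The place of mitochondrial genes differed between groups: those with 20 to 99 sites had 17.2% with NES and 13.4% with NLS in K562, against 18.0% and 11.6% for all genes.

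A value that moves with depth differed between the classes too. At sites with rates of 10% to 20% in HEK293T NES poly(A) RNA, the authors' adjusted p against control had a median of 2.06e-22 at 797 cytosolic sites and 6.19e-05 at 292 mitochondrial sites. A smaller p at the same rate goes with more reads, and a site with few reads is listed only at a higher rate. The part of read depth in the difference between the classes was not tested.

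**Figure D1:**
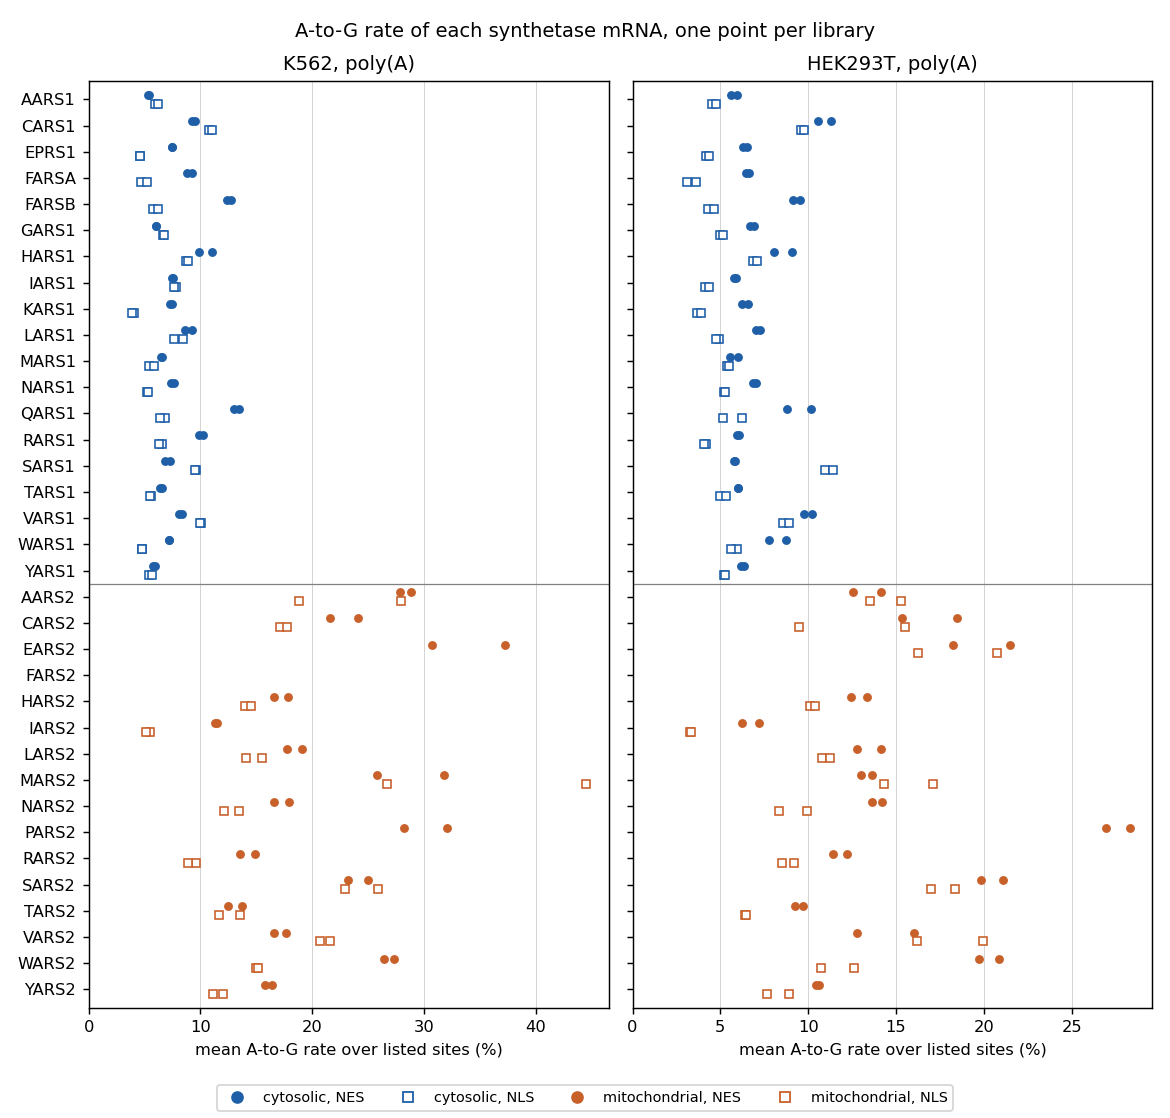
Mean rate over the listed sites of each synthetase mRNA (x axis, percent), 1 point per library, in K562 (left) and HEK293T (right) poly(A) RNA. Filled circles are NES and open squares NLS, blue cytosolic and orange mitochondrial enzymes. The cytosolic genes lie mostly under 12%, and SARS1, at 5.78% and 5.82% with NES against 11.0% and 11.4% with NLS in HEK293T, is the only cytosolic gene there whose NLS points lie to the right.

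Within the cytosolic class the levels with NES in HEK293T ran between 5.75% for MARS1 and 10.9% for CARS1 (cysteine enzyme). Within the mitochondrial class they ran between 6.72% for IARS2 and 20.4% for SARS2 (serine enzyme). IARS2 was the lowest mitochondrial gene in each of the 7 groups. WARS2, the tryptophan enzyme, had 20.9% and 19.7% over 107 sites in the HEK293T NES libraries, the highest level of a synthetase with 100 or more sites there. Its highest site reached 58.3% and 77.2%. The genes of the multisynthetase complex had a median of 6.39% with NES in HEK293T, against 6.88% for cytosolic genes outside it.

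To compare cytoplasmic with nuclear TadA-8e, the rate of a gene was averaged over the sites listed with both constructs, and genes with at least 5 such sites were tested with limma on the log2 rate. Because the median gene itself was higher with NES, by 0.72 log2 in K562 and 0.66 log2 in HEK293T, a change is given relative to that median gene unless it is said to be as deposited. A gene is called higher or lower where the Benjamini-Hochberg adjusted p over all genes was under 0.05. In K562, 37.4% of 6523 genes were called higher and 37.3% lower, so a call by itself is common.

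Cytosolic synthetase mRNAs were called higher more often than lower. In K562 13 of 19 were higher and 4 lower, with a median change of 0.28. In HEK293T 9 of 19 were higher and 5 lower, with a median of 0.16, where 32.9% of 6739 genes were higher and 31.9% lower. The 7 genes of the complex made 6 of the higher calls in each line: MARS1, the methionine enzyme, was the exception, with a change of 0.03 (adjusted p 0.553) in K562 and a lower call in HEK293T. The 12 cytosolic genes outside the complex had 7 higher and 4 lower calls in K562, and 3 higher and 4 lower in HEK293T. As deposited, without the shift to the median gene, 27 of 29 synthetase genes tested in K562 were higher with NES and 1 lower (all genes 80.2% higher and 5.89% lower), and 28 of 30 were higher and 2 lower in HEK293T (77.8% and 6.11%).

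The mRNAs of phenylalanine and lysine enzymes had the largest positive changes among cytosolic genes in both lines. FARSB, the beta subunit of the phenylalanine enzyme, had 17.7% and 18.0% with NES against 5.77% and 6.26% with NLS over 104 shared sites in K562 (log2 change 0.85 ± 0.0497 SE, limma adjusted p 1e-06). In HEK293T it had 14.1% and 13.8% with NES against 4.31% and 4.68% with NLS over 111 sites (0.98 ± 0.06, adjusted p 3.42e-09). FARSA, the alpha subunit of the same enzyme, changed alike, by 0.82 ± 0.0682 in K562 (adjusted p 8.2e-06) and 0.93 ± 0.0811 in HEK293T (adjusted p 1.29e-07). The genes of both subunits were thus higher with NES by similar amounts, and no NES library overlapped an NLS library.

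KARS1, the lysine enzyme of both compartments, had 12.4% and 12.1% with NES against 4.27% and 4.06% with NLS in K562 (0.84 ± 0.0385, adjusted p 2.58e-07). In HEK293T it had 10.9% and 11.6% with NES against 3.71% and 4.01% with NLS (0.89 ± 0.0609, adjusted p 1.07e-08). GARS1, the other gene with a mitochondrial form, was higher in K562, by 0.37 ± 0.0241 (adjusted p 1.99e-06), and had a change of 0.11 in HEK293T that missed the threshold (adjusted p 0.0567).

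QARS1, the glutamine enzyme, was higher by 0.80 ± 0.0491 in K562, with 19.5% and 19.4% with NES against 6.96% and 6.62% with NLS (adjusted p 1.32e-06). LARS1, the leucine enzyme, was among the 4 largest in HEK293T, with 11.0% and 10.5% with NES against 5.02% and 4.88% with NLS (0.46 ± 0.05, adjusted p 1.29e-06).

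A few cytosolic genes had the opposite sign, because their rate differed less between constructs than that of the median gene. VARS1, the valine enzyme, had 10.1% and 10.4% with NES against 9.71% and 9.36% with NLS over 286 sites in K562, a change of −0.62 ± 0.0283 (adjusted p 2.51e-07) while its deposited rate was higher with NES by 0.10 log2. In HEK293T it had 12.6% and 11.9% with NES against 9.51% and 9.91% with NLS (−0.32 ± 0.0555, adjusted p 0.000132). CARS1 was lower by −0.24 ± 0.0434 in K562 (adjusted p 0.00106) and −0.37 ± 0.071 in HEK293T (adjusted p 0.000303), and MARS1 by −0.35 ± 0.062 in HEK293T (adjusted p 0.000151). The CARS1 changes were larger when the median of site rates replaced the mean, at −0.42 in K562 and −0.73 in HEK293T. The deposited rates of CARS1, MARS1 and SARS1 were higher with NES as well, by 0.28, 0.30 and 0.31 log2 in HEK293T. AARS1, the alanine enzyme, was lower by −0.09 ± 0.0336 in K562 (adjusted p 0.0431), a call that was lost without either NES library or without NLS library 2 (adjusted p 0.0972 to 0.248) and without the filter on sites (−0.02, adjusted p 0.598).

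The mitochondrial enzymes split further apart. Of 10 tested in K562, 1 was higher and 3 lower (median change −0.03), and of 11 tested in HEK293T, 2 were higher and 3 lower (median 0.05). The others of the 16 had fewer than 5 shared sites.

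**Figure D2:**
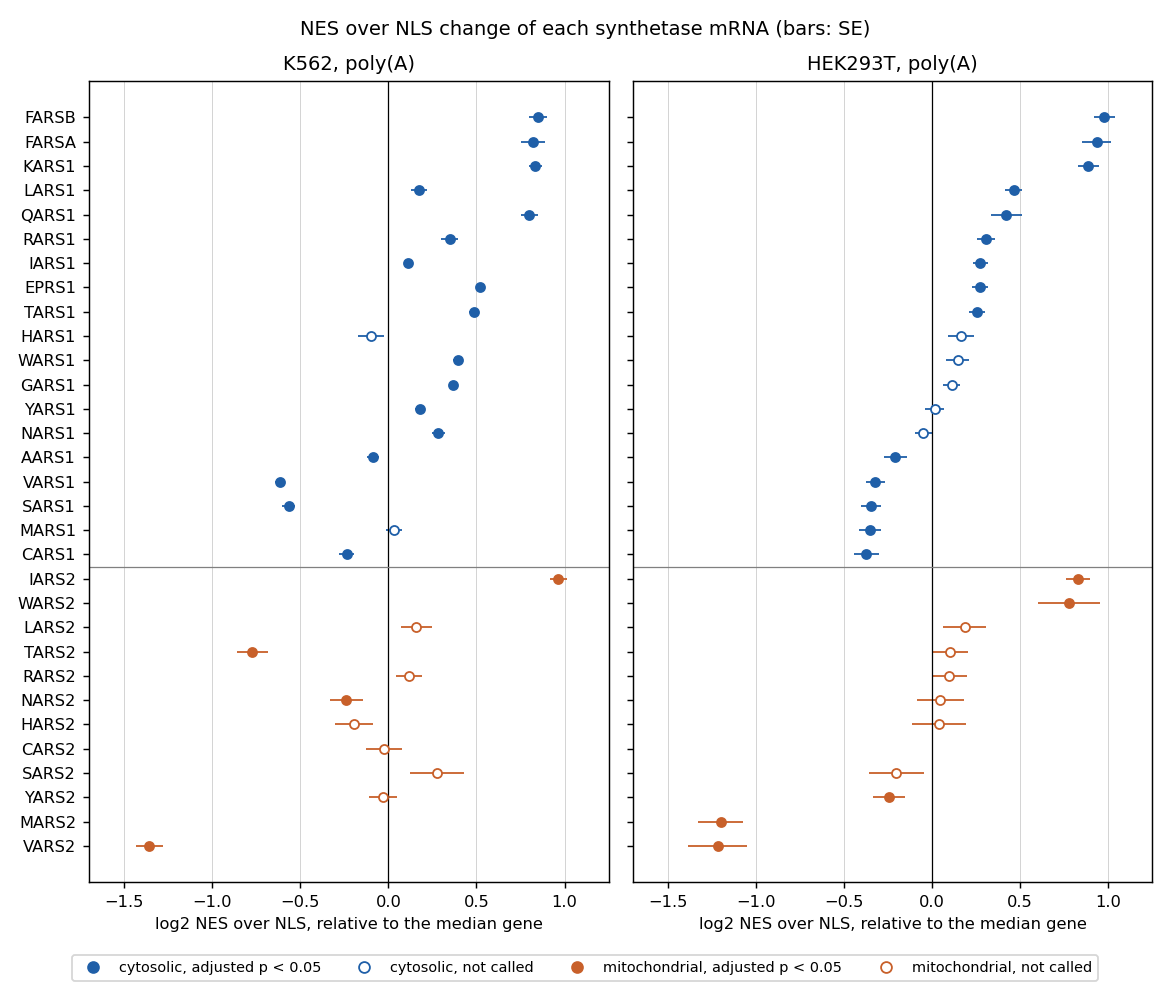
Change of each synthetase mRNA between NES and NLS (x axis, log2, relative to the median gene) in K562 (left) and HEK293T (right) poly(A) RNA, with bars of 1 SE. Blue points are cytosolic and orange mitochondrial enzymes, filled where the adjusted p was under 0.05. FARSB, FARSA, KARS1 and IARS2 stand at the right in both panels and VARS2 at the left, at −1.36 in K562 and −1.22 in HEK293T.

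IARS2, the mitochondrial isoleucine enzyme, was among the most raised of all the genes described. It had 17.1% and 17.3% with NES against 5.57% and 5.13% with NLS over 133 sites in K562 (0.96 ± 0.0462, adjusted p 3.09e-07). In HEK293T it had 10.2% and 8.81% with NES against 3.38% and 3.40% with NLS over 106 sites (0.83 ± 0.0694, adjusted p 8.72e-08). WARS2 was higher in HEK293T, with 33.7% and 29.2% against 12.2% and 11.0%, over 5 sites (0.78 ± 0.178, adjusted p 0.0014). It shared 1 site between the constructs in K562 and was not tested there.

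VARS2, the mitochondrial valine enzyme, and MARS2, the methionine enzyme, went the other way also as deposited. VARS2 had 16.6% and 16.8% with NES against 25.9% and 26.1% with NLS over 22 sites in K562 (−1.36 ± 0.0772, adjusted p 8.56e-07). In HEK293T it had 15.7% and 11.5% with NES against 17.8% and 21.9% with NLS over 11 sites (−1.22 ± 0.168, adjusted p 1.59e-05). No NES library reached the lowest NLS library in either line.

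MARS2 had 13.6% and 13.5% with NES against 18.4% and 21.1% with NLS over 15 sites in HEK293T (−1.20 ± 0.127, adjusted p 1e-06). As deposited, the change was −0.64 for VARS2 in K562, −0.56 for VARS2 in HEK293T and −0.54 for MARS2 in HEK293T. In K562 MARS2 had 2 shared sites and was not tested.

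TARS2, NARS2 and YARS2 were called lower in 1 line each, with deposited rates that were about equal or higher with NES. TARS2, the threonine enzyme, had 13.0% and 14.4% with NES against 13.5% and 14.8% with NLS in K562, where the libraries overlapped (−0.77 ± 0.088, adjusted p 5.88e-05, as deposited −0.05 with adjusted p 0.598). NARS2, the asparagine enzyme, had −0.24 ± 0.0935 in K562 (adjusted p 0.0445), and the call was lost without either NES library or without NLS library 2 (adjusted p 0.0632 to 0.234), or when genes were summarised by the median site (adjusted p 0.277). YARS2, the tyrosine enzyme, had −0.24 ± 0.0923 in HEK293T (adjusted p 0.031), and the call was lost without NES library 1 (adjusted p 0.105) or NLS library 2 (adjusted p 0.185) and over sites listed for all 3 constructs (−0.10, adjusted p 0.480).

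In rRNA-depleted RNA of HEK293T none of 26 synthetase genes tested was called between NES and NLS with limma. An unadjusted p under 0.05 was found for 3 of them, against 877 of all 5357 genes. Over all 5357 genes 0.989% were called higher and 3.7% lower. The standard error was near 0.23 log2 for most genes, and the mean rates over all sites were 17.6% and 21.4% in the NES libraries, with both NLS libraries between them. FARSA had 16.8% and 21.6% with NES against 12.8% and 14.0% with NLS (0.48), and MARS2 had 23.9% and 29.0% with NES against 42.5% and 36.7% with NLS (−0.61). Neither of these 2 genes, named out of the 26, was called. With each library centred on its own median gene, a choice made after the data were seen, FARSA, FARSB, KARS1, TARS1 and IARS2 were higher and MARS1, MARS2 and YARS2 lower, where 28% of all genes were called. With NES library 1 left out 13 synthetase genes were called, where 32% of all genes were, and with NES library 2 left out 8, where 29.5% were. The lone NES library is then assumed to vary like the NLS libraries.

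Which adenosines were listed at all also differed between constructs, and the listing depends on depth and on the authors' threshold. Of the sites of cytosolic genes listed with either construct in K562, 37.5% were listed with NES only, 50.9% with both and 11.5% with NLS only. In HEK293T poly(A) RNA these shares were 38.1%, 52.9% and 8.96%. For mitochondrial genes 63.5% were NES only, 27.4% shared and 9.03% NLS only in K562, and 59.0%, 27.8% and 13.2% in HEK293T. Over all genes, 48.2%, 39.1% and 12.7% were found in K562, and 44.7%, 42.6% and 12.7% in HEK293T. In rRNA-depleted RNA the shares, in the same order, were 20.9%, 56.4% and 22.7% for cytosolic genes. They were 39.0%, 29.5% and 31.5% for mitochondrial genes, and 29.7%, 41.5% and 28.8% over all genes. The cytosolic genes thus shared more of their sites and the mitochondrial genes fewer than all genes.

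At shared sites of cytosolic genes, both NES libraries were above both NLS libraries at 65.3% of 3604 sites in K562 and 65.1% of 2859 sites in HEK293T. For mitochondrial genes this held at 63.9% of 313 and 59.1% of 281 sites, and over all genes at 59.3% and 56.4%. These are poly(A) values. In rRNA-depleted RNA it held at 24.2% of 1957 cytosolic and 17.6% of 119 mitochondrial sites, and at 25.7% over all genes. Both NLS libraries were above both NES libraries there at 25.4%, 25.2% and 29.1% of these sites. The widest gap at a single site in K562 was at chr5:146164388 in LARS1 (minus strand), with 73.1% and 73.0% with NES against 11.96% and 7.44% with NLS. In HEK293T it was at chr5:168516923 in RARS1, the arginine enzyme (plus strand), with 47.8% and 52.6% against 10.3% and 5.45%. The same RARS1 site had the widest gap in rRNA-depleted RNA, with 40.1% and 60.0% with NES against 13.9% and 10.9% with NLS.

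Sites listed with NLS only were a small part of most synthetase mRNAs in poly(A) RNA. VARS2, MARS2 and SARS1 had the largest shares, and they are named after their values were seen. VARS2 had 53 of 82 sites with NLS only in K562, 33 of 45 in HEK293T poly(A) RNA and 50 of 61 in rRNA-depleted RNA. The widest gap in favour of NLS in K562 was also in VARS2, at chr6:30915394 (plus strand), with 10.3% and 12.4% with NES against 69.0% and 48.4% with NLS. MARS2 had 41 of 58 with NLS only in HEK293T poly(A) RNA and 14 of 20 in rRNA-depleted RNA, against 1 of 9 in K562. Neither interval overlaps another annotated gene. WARS2 showed the opposite listing, with 93 of 95 sites in K562 and 102 of 108 in HEK293T listed with NES only.

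SARS1, the cytosolic serine enzyme, had the largest NLS-only share of the cytosolic genes: 162 of 450 sites in K562, 134 of 379 in HEK293T poly(A) RNA and 122 of 288 in rRNA-depleted RNA. The gene lies at chr1:109213893-109238182 (plus strand, hg38). Of its NLS-only sites, 141 of 162 in K562 and 112 of 134 in HEK293T lay in the first 20% of the gene. Of the sites shared by both constructs, 54 of 182 in K562 and 18 of 161 in HEK293T lay there, and of those with NES only, 13 of 106 and 6 of 84. Among 531 genes with at least 50 NLS-only sites in HEK293T, the median gene had 3.08% of them in its first 20%, and 4 genes, SARS1 among them, had 83.6% or more. Among 601 such genes in K562 the median was 2.63% and 6 genes reached 87.0%. In rRNA-depleted RNA 48 of 122 lay there, and 84 of 586 genes had as large a share (median 13.9%).

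The sites near the SARS1 start ended at base 3449 of the gene or before, and in most tables the next listed site was at base 10088. In this first 4 kb in K562, NES gave 67 sites with mean rates of 10.2% and 11.6%, and NLS gave 195 sites with 13.4% and 13.2%. In HEK293T, ERM gave 11 sites with 5.75% and 6.24%, NES 24 sites with 9.54% and 8.99%, and NLS 130 sites with 19.2% and 19.5%. Beyond 4 kb in HEK293T, NES gave 221 sites with 5.37% and 5.48%, and NLS 165 with 4.53% and 5.03%. In K562 NES had 5.76% and 5.96% beyond 4 kb, and NLS 4.66% and 4.82%. In poly(A) RNA of both lines NLS was thus above NES in the first 4 kb and below it beyond. In rRNA-depleted RNA the first 4 kb had 10 sites at 10.4% and 11.9% with NES and 56 sites at 26.3% and 26.3% with NLS, and NLS was higher beyond it too, at 14.4% and 14.3%, against 10.5% and 13.0% with NES.

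These means rest on different sites for each construct, and over the sites listed with both the gap near the start was narrower in HEK293T. In K562 the 54 shared sites of the first 4 kb had 10.3% and 11.8% with NES and 16.3% and 15.8% with NLS. In HEK293T poly(A) RNA the 18 shared sites had 12.4% and 11.6% with NES and 15.5% and 17.1% with NLS. In rRNA-depleted RNA the 8 shared sites had 12.1% and 13.6% with NES and 15.0% and 13.8% with NLS. Both NLS libraries were above both NES libraries at these shared sites in all 3 pairs of tables, and in rRNA-depleted RNA the nearest libraries lay at 13.8% with NLS and 13.6% with NES.

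Over all shared sites the change of the gene was as follows. SARS1 was lower relative to the median gene by −0.57 ± 0.0384 in K562 (adjusted p 2.44e-06) and −0.35 ± 0.0573 in HEK293T (adjusted p 8.43e-05). When genes were summarised by the median site, the change was −0.30 in K562 (adjusted p 0.000311) and −0.09 in HEK293T (adjusted p 0.352), where the call was lost. Without the sites of its first 4 kb, an alternative chosen after these values were seen, the change was 0.09 in K562 (adjusted p 0.135) and −0.12 in HEK293T (adjusted p 0.0888). Which transcript these sites belong to was not analysed here.

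The ERM comparison asks how rates at the ER membrane differ from those in the cytoplasm at large in HEK293T. All 3 pairs of constructs in HEK293T share libraries, so their values are given side by side. As deposited, 29 of 30 synthetase genes had lower rates with ERM than with NES and none was called higher (all genes 91.2% lower and 0.0726% higher), with a median gene at −0.66 log2. Relative to that gene, 11 of 19 cytosolic genes were lower and 1 higher (median −0.15), and 1 of 11 mitochondrial genes was lower and 1 higher (median 0.02), where 20.9% of 6884 genes were lower and 12.9% higher. Cytosolic synthetase mRNAs were called lower in a larger share than all genes with at least 5 shared sites. In either direction, 14 of 30 synthetase genes were called at that filter (all genes 33.8%). With at least 20 shared sites 11 of 25 were called in either direction, against 45% of all genes. The share of cytosolic genes called lower was not looked up at that filter.

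Of the cytosolic genes KARS1 had the largest negative change, with 5.63% and 5.72% with ERM against 11.8% and 12.4% with NES (−0.43 ± 0.0476, adjusted p 0.000105). FARSA (−0.26 ± 0.0588, adjusted p 0.00684), RARS1 (−0.26 ± 0.043, adjusted p 0.00136) and GARS1 (−0.24 ± 0.0379, adjusted p 0.000957) came next among cytosolic genes. WARS1, the cytosolic tryptophan enzyme, had 7.95% and 8.85% with ERM against 11.0% and 12.3% with NES, the 1 cytosolic gene called higher (0.19 ± 0.0634, adjusted p 0.0382). That call was lost without ERM library 2 (adjusted p 0.311) or NES library 1 (adjusted p 0.233), or when genes were summarised by the median site (adjusted p 0.0716), and as deposited WARS1 was lower by −0.47.

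Among mitochondrial genes, NARS2 had 14.5% and 13.0% with ERM against 16.98% and 15.4% with NES, higher relative to the median gene (0.42 ± 0.0866, adjusted p 0.00441) and lower as deposited by −0.24. TARS2 had 7.32% and 7.67% against 14.3% and 15.1% (−0.31 ± 0.0873, adjusted p 0.0207), a call lost without either ERM library or without NES library 2 (adjusted p 0.0547 to 0.129). IARS2 had 5.70% and 5.88% with ERM against 9.83% and 8.78% with NES, which did not differ from the median gene beyond its error (−0.02 ± 0.0559, adjusted p 0.826).

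Between ERM and NLS the median gene was higher with ERM by 0.13 log2. Relative to it 7 of 19 cytosolic genes were higher and 6 lower, and 2 of 6 mitochondrial genes higher and none lower, where 29.8% of 5826 genes were higher and 31.1% lower. As deposited 12 of 25 synthetase genes were higher and 4 lower (all genes 40.5% and 22.5%). IARS2 had 6.06% and 6.37% with ERM against 3.47% and 3.52% with NLS (0.70 ± 0.0603, adjusted p 8.61e-07), and FARSB had 8.35% and 8.33% against 4.67% and 4.85% (0.68 ± 0.057, adjusted p 6.98e-07). FARSA (0.63), KARS1 (0.38) and WARS1 (0.30) were higher too, KARS1 by 0.18 with the mean of log2 site rates.

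MARS1 had 5.32% and 5.38% with ERM against 6.99% and 7.08% with NLS (−0.53 ± 0.0619, adjusted p 1.15e-05), and VARS1 (−0.51), SARS1 (−0.47) and AARS1 (−0.46) were also called lower, each also lower as deposited (by −0.32 to −0.39). For SARS1 the median of site rates gave −1.06. NARS2 was called higher over 8 sites (0.40 ± 0.144, adjusted p 0.027), a call lost without either ERM library or without NLS library 1 (adjusted p 0.0822 to 0.143). With the median of site rates in place of the mean its sign was the opposite, at −0.21.

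**Figure D3:**
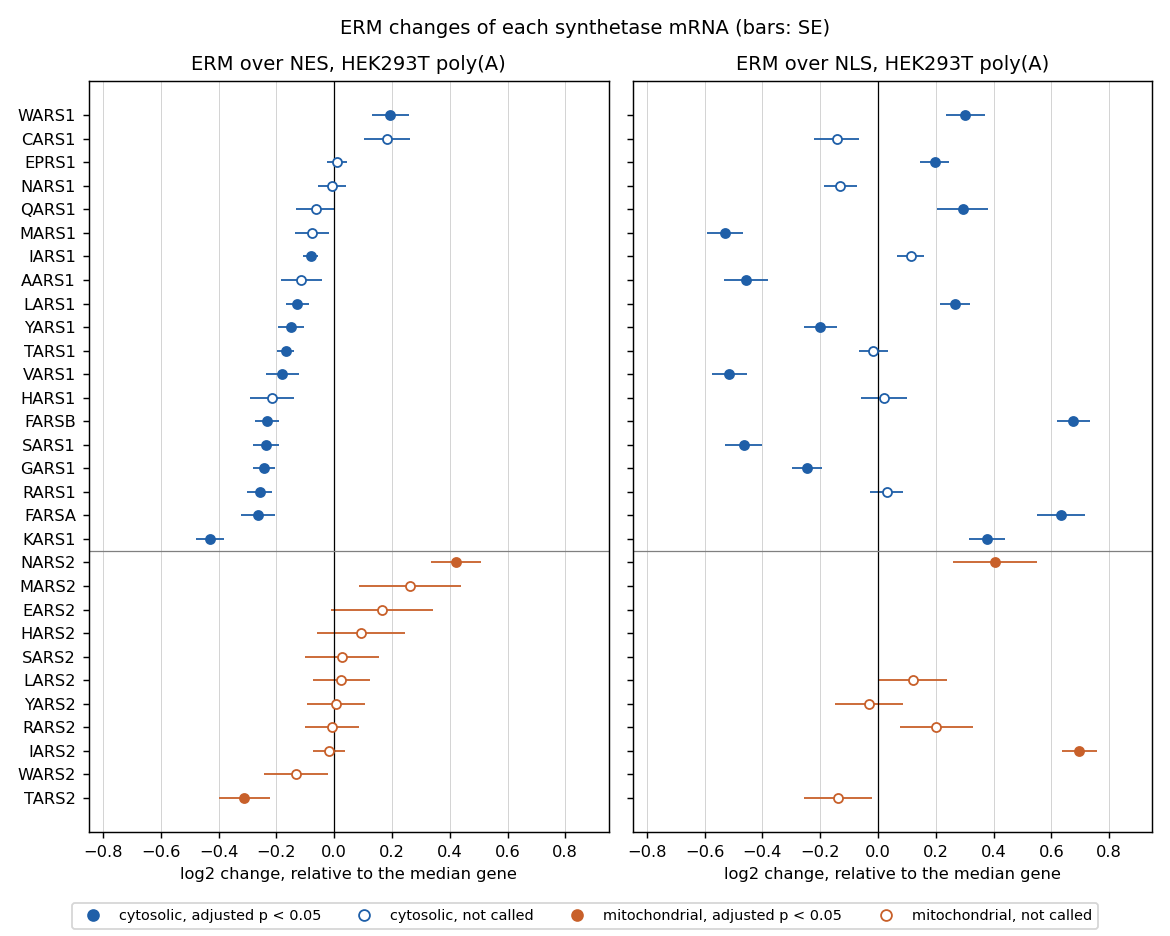
Change of each synthetase mRNA between ERM and NES (left) and between ERM and NLS (right) in HEK293T poly(A) RNA (x axis, log2, relative to the median gene), with bars of 1 SE. Filled points had an adjusted p under 0.05. KARS1 lies at −0.43 in the left panel and 0.38 in the right, and the MARS1, VARS1, SARS1 and AARS1 points lie near −0.5 in the right panel.

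Between the cell lines, the calls of mitochondrial synthetase mRNAs were all towards higher rates in K562. With NES the median gene was higher in K562 by 0.35 log2, and relative to it 6 of 14 mitochondrial genes were higher and none lower (median 0.19), against 5 higher and 3 lower of 19 cytosolic genes (median 0.01), where 24.8% of 7252 genes were higher and 23.7% lower. As deposited 31 of 33 synthetase genes were higher in K562 and none lower (all genes 73.9% and 2.28%).

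IARS2 had 14.0% and 14.2% in K562 against 7.71% and 6.68% in HEK293T over 227 sites (0.62 ± 0.0556, adjusted p 2.68e-05). AARS2, the mitochondrial alanine enzyme, had 33.0% and 31.7% in K562 against 14.8% and 17.4% in HEK293T over 9 sites (0.66 ± 0.133, adjusted p 0.00284). SARS2 (0.25, adjusted p 0.0412) and LARS2, the leucine enzyme (0.24, adjusted p 0.0157), were higher as well. MARS2 (0.50, adjusted p 0.0232) and HARS2, the histidine enzyme (0.38, adjusted p 0.00839), were higher, but without K562 NES library 1 both missed the threshold (adjusted p 0.278 and 0.116), as did HARS2 when genes were summarised by the median site (adjusted p 0.0952).

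Among cytosolic genes with NES, QARS1 had 17.6% and 17.4% in K562 against 10.9% and 9.44% in HEK293T (0.44 ± 0.0639, adjusted p 0.000435). MARS1 (0.39), AARS1 and EPRS1, the glutamate and proline enzyme (0.29 each), were higher too. SARS1 had 6.57% and 6.70% in K562 against 6.42% and 6.44% in HEK293T, lower relative to the median gene (−0.30 ± 0.0314, adjusted p 6.29e-05) and not as deposited (0.04). TARS1 (−0.13) and GARS1 (−0.10) were likewise lower only relative to the median gene, by deposited changes of 0.22 and 0.25, and the GARS1 call was lost without K562 NES library 2 (adjusted p 0.0678). Both calls were lost in limma without a variance trend (TARS1 adjusted p 0.0814, GARS1 0.133).

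With NLS the median gene was higher in K562 by 0.23 log2, and 4 of 19 cytosolic genes were higher and 7 lower relative to it, against 2 higher and none lower of 8 mitochondrial genes, where 19.4% of 5661 genes were higher and 20.8% lower. As deposited 17 of 27 were higher and 2 lower (all genes 48.6% and 6.89%). TARS2 had 14.3% and 17.1% in K562 against 6.75% and 7.17% in HEK293T (0.95 ± 0.117, adjusted p 2.72e-07), and IARS2 was higher by 0.52 ± 0.0674 (adjusted p 5.97e-07). VARS1 (0.37), FARSB (0.28), LARS1 (0.27) and IARS1, the cytosolic isoleucine enzyme (0.18), were higher, and the IARS1 call was lost without K562 NLS library 1 (adjusted p 0.136) or without a variance trend (adjusted p 0.112). SARS1 (−0.48), WARS1 (−0.39), GARS1 (−0.32) and TARS1 (−0.29) were lower. As deposited GARS1 (−0.09, adjusted p 0.155) and TARS1 (−0.06, adjusted p 0.310) were not called, while SARS1 had 10.7% and 10.5% in K562 against 12.5% and 12.9% in HEK293T.

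Whether the NES over NLS change itself differed between the lines was tested in 1 model, over sites listed in all 4 tables, where it shares its libraries with the comparisons above. The change of the median gene was 0.13 log2 larger in K562. Relative to it, 7 of 19 cytosolic genes had a larger change in K562 and 5 a smaller one, and of 8 mitochondrial genes only TARS2 was called, with a smaller one, where 18.4% of 5172 genes were larger and 16.5% smaller. As deposited 12 of 27 were larger and 3 smaller (all genes 29.1% and 8.68%). TARS2 differed by −0.98 ± 0.163 (adjusted p 0.000262): over 16 sites its rates in K562 were 15.7% and 17.2% with NES against 15.9% and 18.1% with NLS, while in HEK293T they were 12.2% and 14.3% with NES against 7.08% and 8.11% with NLS. MARS1 (0.39 ± 0.0802, adjusted p 0.00136) and NARS1, the cytosolic asparagine enzyme (0.33 ± 0.0602, adjusted p 0.000536), had larger changes in K562, and LARS1 (−0.33 ± 0.0675, adjusted p 0.00133) a smaller one. For MARS1 the median of site rates gave 0.23, which was not called (adjusted p 0.164). VARS2, at −0.16 ± 0.279 (adjusted p 0.684) over 8 sites, and IARS2, at 0.15 ± 0.0949 (adjusted p 0.248), were not called.

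A set of 10 single HEK293T cells with NES (Smart-seq2 in their titles, a SMART-Seq v4 kit in the protocol) gave a further reading of the same mRNAs, with 949 to 4498 synthetase sites per cell (median 2342.5) in 23 to 32 genes (median 29). At the sites with at least 5 per gene that were also listed in bulk, the median level of cytosolic genes ran between 5.40% and 37.6% over the cells (median 19.2%), and that of mitochondrial genes between 10.0% and 99.7% (median 59.6%). The cytosolic median was below the mitochondrial one in 10 of 10 cells, with 14 to 19 cytosolic and 1 to 8 mitochondrial genes behind it. In cells 3 and 6 the mitochondrial median was that of 1 gene (90.0% and 99.7%). The sites were taken from the bulk NES list, where mitochondrial genes already had higher levels, so this order is not an independent reading. The cells are also no replicates of a condition. In all 10 cells 16 cytosolic genes had a site, and among mitochondrial genes RARS2, the arginine enzyme. TARS1 had the lowest median level, 9.23%, with a range of 3.28% to 16.4%, and VARS2 and FARS2 were listed in no cell.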

How the data were processed

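Bulk poly(A) and rRNA-depleted RNA libraries of K562 and HEK293T cells with TadA-8e, 2 per group, and 10 single HEK293T cells were used. Per the submitters' processing notes, cutadapt, STAR, Bowtie2 and SAMtools were used on build hg38, and libraries were stranded per the labels' protocols. The site caller is not given in the sources used here. In the deposited tables each fraction is the share of reads changed at a site per library, with no counts, and each p-value is the authors' adjusted p-value against control, at most 0.05. Depth is therefore unknown. Control rates at these sites, total RNA, tRNA and genomic DNA were not analysed here.

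The members and gene lists were chosen with earlier results of these data known. Per gene and library, the rate was averaged over sites listed for both groups, with at least 5 sites. The log2 rates, centred on the median gene of the comparison, were tested with limma 3.58.1 in R 4.3.3, its variance following the number of sites (log2). Tests were two-sided, adjusted by Benjamini-Hochberg over all genes, with a threshold of 0.05. Tables and plots used matplotlib 3.10.9, pandas 2.3.3 and numpy 2.4.6 under Python 3.11.15. Genes given in full are, per comparison, class and direction, the 4 largest changes past the threshold and alike in every pair of libraries. The sequence examples and the sites of VARS2, MARS2, WARS2 and SARS1 were chosen after values were seen. The planned sites of highest rate could not be shown with sequence, since only promoter windows were used.

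On simulated data with 200 genes moved, NES over NLS recovered 61% of changes of 0.5 log2 and 87% of 1 log2 in K562 (6523 genes), 44% and 79% in HEK293T with poly(A) selection (6739 genes), and 0% of either size with rRNA depletion (5357 genes). Separate cultures are not stated for the replicates, and p-values hold for the spread among libraries, which may be technical. Same-numbered libraries did not deviate together (correlations between −0.021 and 0.089). Alternatives covered centring, the filter on sites, the summary of a gene, a pseudocount of 0.01, the variance trend, a replicate block, the set of sites and leaving out each library.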

Additional observations from a re-analysis of the deposited data

Results flagged for a closer look

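In single HEK293T cells with NES, a cell lay far from the others for 3 cytosolic genes, of 32 groups tested for such a cell, where chance gives about 1 in 20, and it was a different cell for each gene. For CARS1 cell 6 had a mean rate of 90.0%, with the next of 9 cells at 39.9%. For FARSA cell 3 had 40.4%, with the next of 10 at 22.8%. For SARS1 cell 4 had 35.6%, with the next of 10 at 21.2%. Cell 6 also had the highest median of cytosolic genes, 37.6%, and cell 3 the next, 28.5%, with the fewest synthetase sites, 949. In cell 4 that median was 19.1%. CARS1 had a median of 21 sites per cell. The part of a cell's general level in these values was not tested.

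The NES over NLS change differed between K562 and HEK293T for 13 synthetase mRNAs by the test of that difference with limma (K562 minus HEK293T, log2, relative to the median gene). It was larger in K562 for QARS1 (0.42), MARS1 (0.39), NARS1 (0.33), WARS1 (0.27), EPRS1 (0.23), GARS1 (0.20) and TARS1 (0.15). It was smaller in K562 for TARS2 (−0.98), LARS1 (−0.33), HARS1 (−0.33), VARS1 (−0.31), FARSB (−0.25) and IARS1 (−0.18). The calls of QARS1, WARS1, HARS1 and FARSB were each lost when 1 of several libraries was left out (adjusted p 0.0507 to 0.170). With the median of site rates 5 of the 13 calls remained, and QARS1, MARS1, HARS1, VARS1 and FARSB were among the lost (adjusted p 0.0567 to 0.164). Without a variance trend 5 remained as well, and QARS1, WARS1, HARS1 and FARSB were among the lost (adjusted p 0.0619 to 0.0904). As deposited the calls of HARS1 and FARSB were lost (adjusted p 0.140 and 0.202). EPRS1, GARS1, IARS1 and TARS1 were not looked up singly in these alternatives. Among all genes 34.9% were called in this test.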

How the results depend on the processing

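Each change given in full was followed through the alternative settings, and each pair of change and setting was counted. Relative to the main settings, 910 pairs kept their direction and side of the threshold, 66 kept the direction and missed it, and 17 turned round. These changes were chosen among the largest calls, and a change that a setting left untested was not counted. Most of the reversals came with values as deposited, where the shift of the median gene is not removed by construction. For NES over NLS these were CARS1 0.28, MARS1 0.30, SARS1 0.31, VARS1 0.34 and YARS2 0.41 in HEK293T, and VARS1 0.10, SARS1 0.15, CARS1 0.48, AARS1 0.63 and NARS2 0.48 in K562. For ERM over NES they were WARS1 −0.47 and NARS2 −0.24, and for K562 over HEK293T with NES SARS1 0.045, TARS1 0.22 and GARS1 0.25. The others were NARS2 for ERM over NLS with the median of site rates (−0.21) and SARS1 in K562 without its first 4 kb (0.086), and their cause was not tested.

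As deposited, 30 of 30 synthetase genes were called for NES over NLS in HEK293T (all genes 83.9%) and 29 of 30 for ERM over NES (91.3%). For K562 over HEK293T with NES 31 of 33 were called (76.1%). The main settings gave 19 (all genes 64.8%), 14 (33.8%) and 14 (48.4%). In rRNA-depleted RNA 8 were called with each library centred on its own median (all genes 28%), and leaving out 1 library gave 0 to 13 (all genes 0.224% to 32%). Without a variance trend 7 of 30 were called for ERM over NES (all genes 21.8%), against 14 (33.8%). For the difference between lines 5 of 27 were called without a variance trend (all genes 27.3%) and 5 with the median of site rates (20%), against 13 (34.9%). The cause was not tested. With the median of site rates, cytosolic minus mitochondrial class medians were −7.41 points for HEK293T NES, −6.24 for HEK293T NLS and −8.10 for K562 NLS.

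A replicate block gave 19 of 30 calls for NES over NLS in HEK293T (all genes 63.8%), 20 of 29 in K562 (75.4%, NARS2 lost, adjusted p 0.0656) and 0 of 26 in rRNA-depleted RNA (4.69%). It gave 15 of 30 for ERM over NES (all genes 37.7%), 15 of 25 for ERM over NLS (61.5%), 16 of 33 for K562 over HEK293T with NES (52.5%), 14 of 27 with NLS (40.4%) and 13 of 27 for the difference between lines (34.7%). Whether the replicate numbers pair the libraries is not stated in the labels, and same-numbered libraries did not deviate together.

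Rates rest on sites past the authors' threshold, fractions carry no depth, each group has 2 libraries, and mitochondrial genes rest on few sites.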

Other observations

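Of 23 partners of tRNA charging and translation factors, 19 were tested in K562, where 14 were higher with NES relative to the median gene, none lower and 5 not called (median change 0.41, NES over NLS, limma), against 37.4% higher and 37.3% lower over all genes. In HEK293T 9 of 16 were higher and 3 lower (median 0.34, all genes 32.9% and 31.9%), and in ERM over NES 3 of 18 were higher and 4 lower (all genes 12.9% and 20.9%). For NES over NLS in rRNA-depleted RNA none of 11 was higher and 1 was lower (median −0.13, all genes 0.989% and 3.7%). The non-enzyme parts of the multisynthetase complex, named after their values were seen, were higher in poly(A) RNA of both lines: AIMP2 by 1.30 in K562 and 1.07 in HEK293T, EEF1E1 by 0.56 and 0.47, and AIMP1 by 0.37 and 0.66. In rRNA-depleted RNA AIMP2 and AIMP1 were not called (−0.17 and 0.00 log2). EEF1A1, which carries charged tRNA to the ribosome, had 5.52% and 5.55% with NES against 2.27% and 2.24% with NLS in K562 (0.58, adjusted p 2.83e-08). In HEK293T it had 4.39% and 4.39% with NES against 3.42% and 3.51% with NLS, lower relative to the median gene (−0.32, adjusted p 3.64e-06) and higher by 0.34 as deposited. XPOT, the tRNA exporter, was called higher in K562 (0.27) and lower in HEK293T (−0.47, as deposited 0.19).

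Of 30 genes of the amino acid response, which induces many cytosolic synthetases, 24 were tested in K562, where 5 were higher with NES relative to the median gene, 15 lower and 4 not called (median −0.24, all genes 37.4% higher and 37.3% lower). In HEK293T 1 of 22 was higher and 19 lower (median −0.53, all genes 32.9% and 31.9%). As deposited 19 of 24 were higher and 4 lower in K562 (all genes 80.2% and 5.89%), and 10 of 22 were higher and 3 lower in HEK293T (77.8% and 6.11%). SLC38A2, an amino acid transporter, had 3.91% and 3.98% with NES against 10.1% and 9.84% with NLS in K562 (−2.06, adjusted p 5.87e-10), and 5.14% and 5.72% against 7.36% and 8.02% in HEK293T (−1.16, adjusted p 5.08e-10). It was lower as deposited in both lines, by −1.34 and −0.50. ATF4, the transcription factor of the response, was lower relative to the median gene in both (−0.27 and −0.29) and higher as deposited (0.45 and 0.36). In ERM over NES 7 of 22 were higher and 6 lower (all genes 12.9% and 20.9%), and in K562 over HEK293T with NES 2 of 23 were higher and 14 lower (all genes 24.8% and 23.7%).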
